A study of Bos taurus with 16 samples.

Results

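Glycolysis and hypoxia response genes were followed in CD14+ cells sorted from the blood and from the endometrium of pregnant cows. The set was 36 genes, listed by symbol for their known roles: glucose and lactate transporters, enzymes of glycolysis and their regulators, the hypoxia-inducible factors and the hydroxylases that control them, and genes induced by low oxygen. A probe was taken for a gene where its gene name, or the symbol in brackets in its description, was that symbol, and 35 of the 36 genes had a probe among the 21475 probes of the array. The brightest such probe over the 16 columns of the authors' table was used. With 5 further probes that matched only through the number of the gene, given below as second probes and not used, 27 of these 35 genes had 1 probe and 8 had more. Hexokinase 2 (HK2) had no matching probe. All 35 probes were among the 16654 tested, those with a signal well above background in 4 or more of a tissue's 8 channels.

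Blood and uterus came from 4 pregnant cows at an abattoir, at day 164 (animal 1), day 239 (animal 2), day 242 (animal 3) and day 248 (animal 4) of pregnancy. CD14, the lipopolysaccharide co-receptor carried by monocytes and macrophages, was the marker of the flow cytometric sort, and the labelled purity was 98 to 99% for blood and 90 to 95% for endometrium. Amplified RNA of both tissues of an animal was hybridised together on a 2-colour Agilent bovine array, with 2 arrays per animal, 8 arrays and 16 samples in all. The dyes were swapped between the 2 arrays of animals 1, 2 and 4 but not of animal 3. Each day of pregnancy was that of a single animal, so that stage and animal cannot be told apart. No untreated, non-pregnant or other control group was analysed here.

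Glycolysis turns glucose into pyruvate and yields ATP without oxygen, and lactate dehydrogenase lets it run on by turning pyruvate into lactate. When oxygen is plentiful, prolyl hydroxylases mark the alpha subunits of the hypoxia-inducible factors for degradation, and when it is scarce these subunits pair with ARNT and switch on glucose transporters, glycolytic enzymes and other targets. Inflammatory macrophages are known for high glycolysis driven in part by HIF1A.

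The labelled cell type was checked against its markers. The normalised log2 level of CD14 mRNA was 14.24 in blood and 12.17 in endometrium of animal 1. In the other animals it was 6.30, 7.63 and 6.69 in blood and 6.41, 8.14 and 6.82 in endometrium, for animals 2, 3 and 4 in turn. Both tissues of animal 1 thus stood apart from the other 6 tissue samples, where CD14 mRNA lay low although the probe was well above background in all 16 channels. Summed over the 12 genes of a CD14+ monocyte and macrophage list, the linear level was 179268 in blood of animal 1 and 9635 to 15828 in blood of the other 3 animals. In endometrium it was 128765 in animal 1 and 22670 to 49682 in the others. None of the 12 genes was at the background in all channels of a tissue. A list of 8 B cell genes had a median log2 ratio of endometrium over blood of -1.92, and of -1.56, -2.56, -3.75 and -0.62 by animal. Its summed level was 8821 to 55691 in blood, 5191 to 5231 in endometrium of animals 1 to 3 and 19406 in that of animal 4. A list of 17 T and NK cell genes summed to 4437 in blood of animal 1 and to 39553 to 80335 in blood of the others. In endometrium that list summed to 41270 to 198380. Its median ratio was 0.51, and 0.93, 0.95, 0.49 and -0.04 by animal. Of 12 tissue macrophage genes, 10 had an unadjusted p up to 0.05 with over 2-fold more in endometrium, and the list had a median ratio of 2.75. The epithelial list (17 genes) had a median of 2.18 and the trophoblast list (13 of 15 genes tested) 2.70, both higher in endometrium. At that p and fold, each had 10 genes higher in endometrium and 1 higher in blood, beside 5.27% and 5.11% of all tested probes. Of the trophoblast genes, 5 also had an adjusted p of at most 0.05, beside 0.0661% of all tested probes. In that list 5 genes were well above background in no blood channel and 2 in no endometrial channel. Sorted cells were measured in bulk, so that fewer cells of a type and less RNA per cell cannot be told apart, and the part of other cells in the results below was not tested. Means without animal 1 are given for members whose mean moved by over 1.5 times without it.

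No member passed the threshold for a difference between the tissues, a Benjamini-Hochberg adjusted p of at most 0.05 in limma over all tested probes with a fold change over 2, which 0.0661% of all tested probes passed. The lowest adjusted p among the members was 0.242 (P4HA1). At an unadjusted p of at most 0.05 with the same fold, 2 members were higher in endometrium, EPAS1 and P4HA1, beside 5.27% of all tested probes. In the other direction 2 members were higher in blood, SLC2A3 and PFKFB3, beside 5.11% of all tested probes. Without the limit on fold, 3 members were at that p with more in endometrium and 6 with more in blood, beside 6.58% and 8.63% of all tested probes.

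Endometrium exceeded blood in all 4 animals, with a log2 ratio above 0 in each, for 4 members and fell short of it in all 4 for 5 members, while 26 members had both signs. Over all tested probes, 10.2% were above 0 in every animal and 14.7% below, so that the shares among the 35 members lay near the background. The median log2 ratio over the members was 0.20, beside -0.02 over all tested probes. By animal it was -0.39, 0.09, 0.16 and 0.11, so that animal 1 alone was below 0. Animal 4 had the narrowest spread of ratios over the members, with an SD of 0.42, where animals 1, 2 and 3 had SDs of 1.18, 1.06 and 1.41. Over all tested probes the SD was 0.71 in animal 4 and 1.00 to 1.49 in the others. The median absolute difference between the 2 arrays of an animal, which are technical replicates, was 0.10 over the members, and the median SD over the 4 animals was 0.65.

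**Figure D1:**
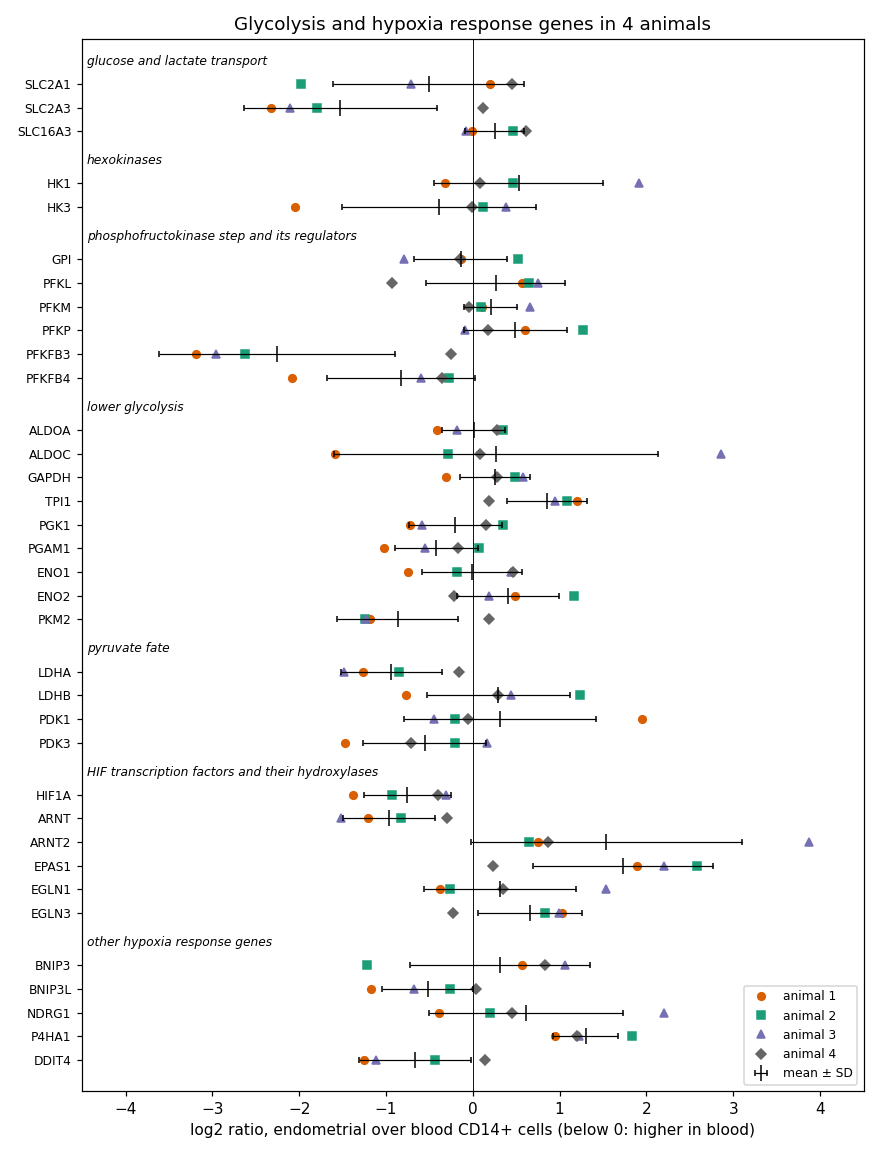
Log2 ratio of endometrial over blood CD14+ cells (horizontal axis) for the 35 members, grouped by role. Each symbol is an animal (the mean of its 2 arrays) and the black bars are the mean ± SD of the 4 animals. PFKFB3 and SLC2A3 lie farthest to the blood side and EPAS1 and ARNT2 farthest to the endometrial side, and animal 4 lies close to 0 for most genes.

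**Figure D2:**
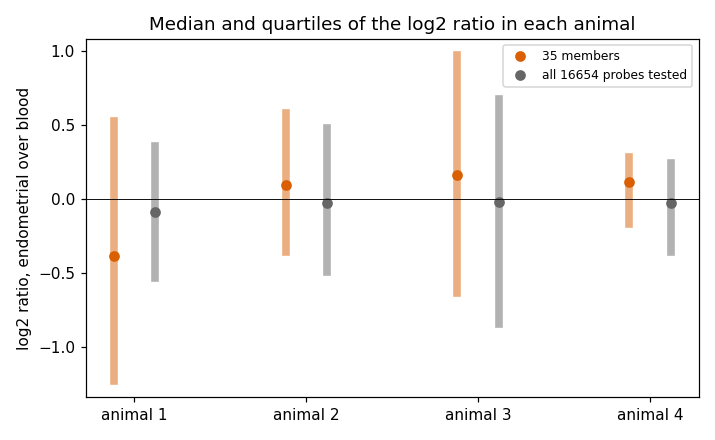
Median (point) and quartiles (bar) of the log2 ratio in each animal, for the 35 members and for all 16654 tested probes. The member median is -0.39 in animal 1 and 0.09 to 0.16 in the others.

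The glucose transporters were lower in endometrium in some animals and not in others. SLC2A3 encodes GLUT3, a high-affinity glucose transporter of leukocytes and placenta. Its log2 level was 13.83, 14.24, 14.51 and 13.89 in blood and 11.51, 12.44, 12.41 and 14.01 in endometrium of animals 1 to 4. Endometrial levels of animals 1, 2 and 3 lay below every blood level, while animal 4 had like levels in both tissues. The mean log2 ratio was -1.53 ± 1.11 (SD, n = 4), a level 2.88-fold higher in blood, with an adjusted p of 0.270. It was -1.68 on slide 1 and -1.37 on slide 2, and -2.07 without animal 4. A second probe of the gene, under the RefSeq name itself, gave ratios of -1.93, -1.04, -1.76 and 0.50, with a mean of -1.06. Both 60-base probes are shown because the brighter was named from an expressed sequence tag.

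SLC2A3, probe A_73_107738 (used): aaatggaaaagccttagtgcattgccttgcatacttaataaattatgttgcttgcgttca
SLC2A3, probe A_73_105268: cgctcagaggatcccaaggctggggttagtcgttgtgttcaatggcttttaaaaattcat

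These sequences share no run longer than 7 bases and both put animals 1 to 3 below 0 and animal 4 above. SLC2A1 encodes GLUT1, the basal glucose transporter. Its log2 ratio was 0.20, -1.98, -0.71 and 0.45 in animals 1 to 4, with a mean of -0.51 ± 1.10 (SD, n = 4), and the signs were split between the animals. SLC16A3, the lactate exporter MCT4, lay near the background with levels of 6.38 to 7.34 and a mean log2 ratio of 0.25 ± 0.34 (SD, n = 4; range -0.07 to 0.61), which was 0.51 in the authors' log2 values.

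Hexokinases trap glucose in the cell as glucose 6-phosphate. HK1 had log2 ratios of -0.33, 0.46, 1.91 and 0.08, a mean of 0.53 ± 0.97 (SD, n = 4), with animal 3 well above the others. HK3, the hexokinase of granulocytes and monocytes, had a log2 level of 10.83 in blood and 8.78 in endometrium of animal 1. In animals 2, 3 and 4 it was 6.08, 6.22 and 6.07 in blood and 6.19, 6.61 and 6.06 in endometrium. HK3 was thus high in both tissues of animal 1, and it was well above background in 3 of the 8 blood channels and 5 of the 8 endometrial channels. Its ratio was -2.05 in animal 1 and 0.12, 0.38 and -0.01 in the others, so that the mean of -0.39 ± 1.12 (SD, n = 4) became 0.16 without animal 1 and was -0.08 in the authors' log2 values. A list of 10 neutrophil genes had a summed level of 140497 in blood of animal 1 and 2646 to 4338 in blood of the other animals, and CSF3R, the G-CSF receptor, had a log2 level of 12.79 in that sample and 6.48 to 6.65 in the other blood samples. Of the neutrophil list, CAMP and MMP8 were not well above background in any channel. Their part in the HK3 values was not tested. The probe described as hexokinase type II, which carries no HK2 symbol and was chosen after its values were seen, had log2 ratios of -0.12, -1.49, -0.59 and -0.65, with a mean of -0.71 ± 0.57 (SD, n = 4) and an adjusted p of 0.333.

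PFKFB3 had the largest mean log2 ratio in size of all members, other than in the authors' log2 values and the processed signal, where that of ARNT2 was larger. PFKFB3 and PFKFB4 are bifunctional enzymes that set the level of fructose 2,6-bisphosphate, the main activator of phosphofructokinase, and PFKFB3 is the isoform known for favouring glycolysis. The log2 level of PFKFB3 was 15.60, 15.11, 15.94 and 14.62 in blood and 12.40, 12.48, 12.98 and 14.37 in endometrium of animals 1 to 4. All 4 blood levels lay above all 4 endometrial levels, but the animals differed in the gap, which was -3.19, -2.63, -2.96 and -0.25 on the log2 scale. The mean was -2.26 ± 1.36 (SD, n = 4), a level 4.79-fold higher in blood, with a moderated standard error of 0.54 and an adjusted p of 0.262. It was -2.28 on slide 1 and -2.24 on slide 2, and -2.93 without animal 4. The probe was:

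PFKFB3, probe A_73_118246: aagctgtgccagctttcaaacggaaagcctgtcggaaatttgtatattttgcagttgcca

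PFKFB4 had a log2 level of 11.29 in blood and 9.20 in endometrium of animal 1. In the other animals its levels were 6.53, 7.51 and 7.33 in blood and 6.26, 6.92 and 6.97 in endometrium. Animal 1 was high in both tissues, as for HK3. The log2 ratio was -2.09, -0.27, -0.59 and -0.36, below 0 in all 4 animals, with a mean of -0.83 ± 0.85 (SD, n = 4) and an adjusted p of 0.362, and of -0.41 without animal 1. In the authors' log2 values the ratios were -2.21, -1.45, -1.22 and -0.70 in animals 1 to 4, so that the other animals lay nearer animal 1. Their mean was -1.39 ± 0.63 (SD, n = 4), over 1.5 times as large on the log2 scale, with an adjusted p of 0.242. The subunits of phosphofructokinase, the committing step of the pathway, had smaller means. PFKL had a mean log2 ratio of 0.26 ± 0.80 (SD, n = 4; range -0.93 to 0.75), PFKM of 0.20 ± 0.31 (range -0.04 to 0.66) and PFKP of 0.49 ± 0.59 (range -0.09 to 1.27). GPI, which makes fructose 6-phosphate, had a mean of -0.14 ± 0.54 (range -0.80 to 0.52). All 4 of these ranges include 0. The mean of PFKM was 0.31 in the authors' log2 values and 0.36 with the scanner's processed signal.

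Of the 9 members of lower glycolysis, from aldolase to pyruvate kinase, 5 had a mean above 0. None was past a 2-fold mean with all arrays and the normalisation used here. ENO2 was past it in the authors' log2 values, TPI1 on slide 1 (1.01) and without animal 4 (1.08), and PKM2 without animal 4. TPI1, triosephosphate isomerase, had a log2 level of 11.83, 11.32, 11.65 and 11.10 in blood and 13.03, 12.41, 12.60 and 11.28 in endometrium. Endometrium was higher in all 4 animals, least in animal 4, with ratios of 1.20, 1.09, 0.95 and 0.19. The mean was 0.85 ± 0.46 (SD, n = 4) with an adjusted p of 0.272. PKM2, the pyruvate kinase that makes pyruvate and is also named PKM, went the other way in 3 animals. Its log2 level was 14.17, 13.78, 14.03 and 13.68 in blood and 12.99, 12.54, 12.80 and 13.86 in endometrium, and animal 4 was the exception. The ratios were -1.18, -1.24, -1.23 and 0.18, with a mean of -0.87 ± 0.70 (SD, n = 4), an adjusted p of 0.310, and a mean of -1.22 without animal 4.

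GAPDH, the glyceraldehyde phosphate dehydrogenase often used as a reference gene, had 3 probes. The brightest, used here, is named in the files for a separate predicted gene described as similar to GAPDH, so that the signal may be shared between copies. It gave log2 ratios of -0.31, 0.48, 0.58 and 0.28, with a mean of 0.26 ± 0.40 (SD, n = 4). Those designed on the RefSeq transcript gave means of 0.02 and 0.40, and all 3 probes were below 0 in animal 1. ALDOC, aldolase C, had the widest spread, with a mean of 0.27 ± 1.87 (SD, n = 4; range -1.59 to 2.85), lowest in animal 1 and highest in animal 3. The remaining members had means of 0.01 ± 0.37 for ALDOA (range -0.41 to 0.35), -0.20 ± 0.53 for PGK1 (range -0.73 to 0.35) and -0.42 ± 0.48 for PGAM1 (range -1.03 to 0.07). The enolases ENO1 and ENO2 had means of -0.01 ± 0.57 (range -0.74 to 0.46) and 0.41 ± 0.59 (range -0.22 to 1.17). Each of these ranges spans 0. For ENO2 the mean was 1.04 in the authors' log2 values and 0.96 with the processed signal.

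Lactate dehydrogenase A, the subunit that favours making lactate, was lower in endometrium in all 4 animals. The log2 level of LDHA was 13.89, 12.56, 13.10 and 12.50 in blood and 12.63, 11.72, 11.62 and 12.34 in endometrium. The ratios were -1.26, -0.84, -1.48 and -0.16, with a mean of -0.94 ± 0.58 (SD, n = 4) and an adjusted p of 0.273, and the levels of the tissues overlapped. LDHB, the subunit that favours pyruvate, had ratios of -0.78, 1.23, 0.43 and 0.29, with a mean of 0.29 ± 0.83 (SD, n = 4), and only animal 1 was below 0. The pyruvate dehydrogenase kinases, which keep pyruvate out of the mitochondrial cycle, had means of 0.31 ± 1.11 for PDK1 (range -0.45 to 1.95) and -0.56 ± 0.71 for PDK3 (range -1.47 to 0.16). Animal 1 alone was above 0 for PDK1, and without it the mean was -0.24. A second PDK1 probe gave a mean of 0.00 with a ratio of 0.56 in animal 1.

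**Figure D3:**
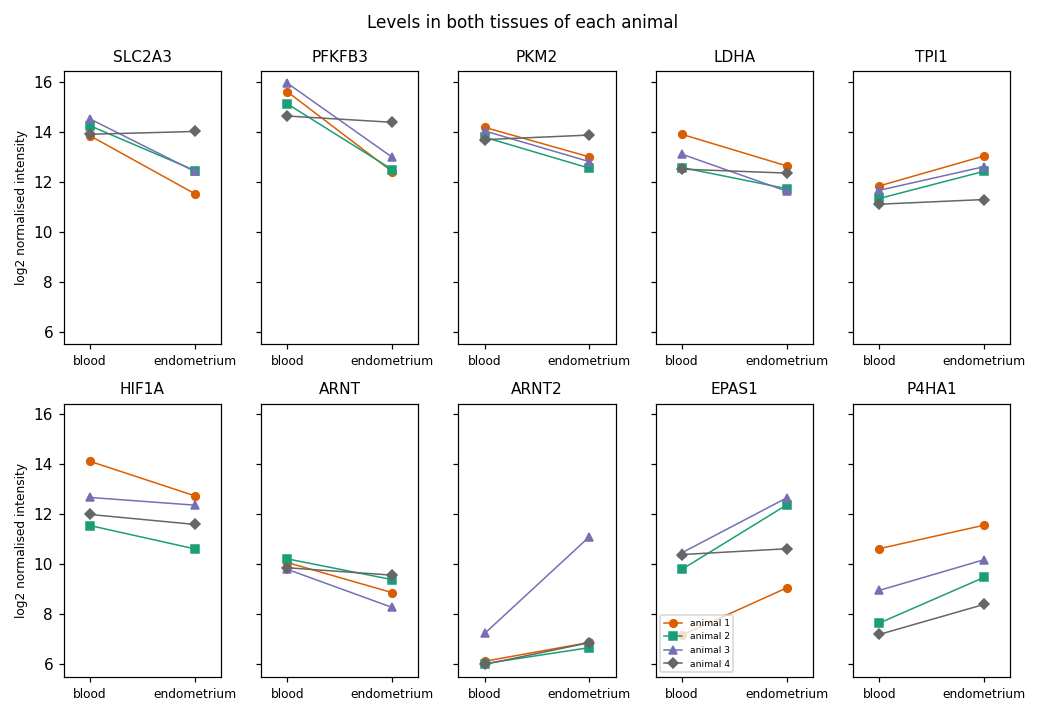
Normalised log2 intensity in blood and endometrium for 10 members, with a line for each animal. Levels can be compared within a gene and not between genes, whose probes differ. SLC2A3, PFKFB3 and PKM2 are lower in endometrium in animals 1 to 3 and at like levels in animal 4, and ARNT2 is high only in animal 3.

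The hypoxia-inducible factors differed in direction. HIF1A, the alpha subunit of HIF-1, had a log2 level of 14.12, 11.55, 12.68 and 11.996 in blood and 12.74, 10.62, 12.37 and 11.60 in endometrium. Blood was higher in each of the 4 animals, by ratios of -1.38, -0.93, -0.31 and -0.40, but the animals differed so much that the levels of the tissues overlapped. The mean was -0.76 ± 0.50 (SD, n = 4) with an adjusted p of 0.297. EPAS1 encodes HIF-2 alpha. Its log2 level was 7.16, 9.80, 10.46 and 10.39 in blood and 9.06, 12.38, 12.66 and 10.62 in endometrium. Endometrium was higher in all 4 animals, by 1.89, 2.58, 2.20 and 0.23, so that animals 1 to 3 had a clear gap and animal 4 almost none. The mean was 1.73 ± 1.04 (SD, n = 4), a level 3.31-fold higher in endometrium, with a moderated standard error of 0.43 and an adjusted p of 0.262. The mean was 1.67 on slide 1, 1.78 on slide 2 and 2.22 without animal 4. A list of 11 endothelial genes, a cell type known for EPAS1, had a median ratio of 0.40, with summed levels of 1725 to 2520 in blood and 2002 to 10316 in endometrium. By animal the list's median was 0.76, -0.13, 0.70 and -0.01, while the EPAS1 ratio was highest in animal 2. In endometrium both the list's summed level and EPAS1 were highest in animal 3. CDH5 and ESAM of that list were not well above background in any blood channel. The trophoblast list had median ratios of 2.66, 2.87, 3.17 and 2.11 in animals 1 to 4, lowest in animal 4 as for EPAS1 but highest in animal 3. The part of either list in the EPAS1 values was not tested.

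ARNT, also called HIF-1 beta, is the partner of both alpha subunits. Its log2 level was 10.07, 10.22, 9.80 and 9.86 in blood and 8.87, 9.39, 8.28 and 9.57 in endometrium. Every blood level was above every endometrial level, and the ratios were -1.21, -0.83, -1.52 and -0.30. The mean was -0.96 ± 0.53 (SD, n = 4), just under 2-fold, with an adjusted p of 0.263. A second, dimmer probe gave ratios of 0.28, 0.20, -1.99 and -0.42 with a mean of -0.48, so that the probes disagreed in animals 1 and 2.

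ARNT2, a paralogue of ARNT better known from neurons, depended on the probe and on the normalisation. The log2 level of the brighter probe was 6.12, 6.03, 7.23 and 5.996 in blood and 6.87, 6.67, 11.11 and 6.87 in endometrium. It was well above background in all 8 endometrial channels and in 2 of the 8 blood channels. Endometrium of animal 3 was far above every other sample, and the ratios were 0.75, 0.64, 3.87 and 0.87. The mean was 1.54 ± 1.56 (SD, n = 4) with an adjusted p of 0.329, and 0.76 without animal 3, whose dyes were not swapped. In the authors' log2 values the ratios were 3.56, 3.83, 5.53 and 5.03 with a mean of 4.49 ± 0.95 (SD, n = 4) and an adjusted p of 0.0131. With the scanner's processed signal the mean was 4.75 with an adjusted p of 0.0190. ARNT2 was the only member to pass the threshold in either of these, which 1.35% of all tested probes passed in the authors' values and 1.03% in the processed signal. The second probe, of a predicted transcript matched through its gene identifier, gave ratios of -0.06, -0.07, 0.32 and 0.15, a mean of 0.08, and was well above background in 5 endometrial and 3 blood channels. The epithelial list had median ratios of 2.24, 1.17, 3.89 and 1.10 in animals 1 to 4, highest in animal 3 as for ARNT2, with summed levels of 3131 to 6390 in blood and 19737 to 135734 in endometrium. None of its 17 genes was at the background in all channels of a tissue, and its part in the ARNT2 values was not tested. The probes of these factors are given because the probes of ARNT and of ARNT2 disagreed.

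EPAS1, probe A_73_103471: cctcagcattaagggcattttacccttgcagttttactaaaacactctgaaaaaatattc
ARNT, probe A_73_104072 (used): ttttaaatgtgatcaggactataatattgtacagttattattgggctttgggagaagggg
ARNT, probe A_73_110146: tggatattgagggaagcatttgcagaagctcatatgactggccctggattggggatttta
ARNT2, probe A_73_115177 (used): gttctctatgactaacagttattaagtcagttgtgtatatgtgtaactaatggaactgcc
ARNT2, probe A_73_111389: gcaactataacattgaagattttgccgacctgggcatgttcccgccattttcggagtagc

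Both ARNT2 probes are 60 bases long with no shared run over 5 bases, and their GC contents were 35.0% for the brighter and 48.3% for the other. Both ARNT probes shared at most 6 bases in a row. The prolyl hydroxylases EGLN1 and EGLN3 (PHD2 and PHD3) tag the alpha subunits for degradation. EGLN1 had a mean log2 ratio of 0.31 ± 0.88 (SD, n = 4; range -0.38 to 1.53). EGLN3 had a log2 level of 7.29, 10.38, 10.05 and 10.19 in blood and 8.31, 11.21, 11.04 and 9.96 in endometrium, a mean ratio of 0.66 ± 0.60 (SD, n = 4; range -0.23 to 1.03) and an adjusted p of 0.364. Animals 1 to 3 were above 0 for EGLN3 and animal 4 below. A second EGLN3 probe gave ratios of 0.74, 0.58, -0.0022 and -0.55, with a mean of 0.19. A second EGLN1 probe gave a mean of 0.08 and disagreed in animal 3, where it was -0.51 beside 1.53.

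**Figure D4:**
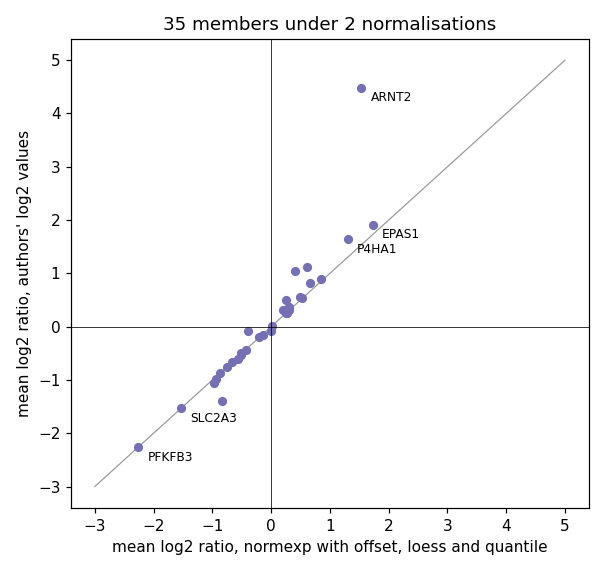
Mean log2 ratio of endometrium over blood for the 35 members with background correction by normexp and an offset, loess and quantile normalisation (horizontal) and in the authors' log2 values (vertical), with the line of equality. ARNT2 lies farthest from the line, at 1.54 and 4.49.

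P4HA1, one of the other genes induced by hypoxia, was the member with the least spread for its size under the normalisation used here. In the authors' log2 values ARNT2 was that member (4.49 ± 0.95), and P4HA1 had a mean of 1.65 ± 0.57 (SD, n = 4). P4HA1 is a subunit of the prolyl 4-hydroxylase that matures collagen. Its log2 level was 10.63, 7.65, 8.96 and 7.19 in blood and 11.57, 9.48, 10.18 and 8.40 in endometrium. Endometrium was higher in all 4 animals, by 0.94, 1.83, 1.23 and 1.20, although the animals differed more than the tissues did. The mean was 1.30 ± 0.38 (SD, n = 4), a level 2.46-fold higher in endometrium, with a moderated standard error of 0.24 and an adjusted p of 0.242. It was 1.27 on slide 1 and 1.33 on slide 2, and 1.12 to 1.42 with each animal left out in turn. A stromal list (15 of 17 genes tested) had median ratios of 4.73, -0.01, 0.90 and 0.31, with summed levels of 3687 to 34082 in blood and 3023 to 138223 in endometrium, and its part in the P4HA1 values was not tested. By level, both the stromal list and P4HA1 were highest in animal 1 in both tissues. By ratio, the list was highest in animal 1 and P4HA1 lowest. The probe of P4HA1, shown because its ratios lay closest together among the members over 2-fold in the mean, was:

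P4HA1, probe A_73_108355: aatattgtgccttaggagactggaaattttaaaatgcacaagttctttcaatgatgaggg

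BNIP3 and BNIP3L, mitophagy receptors, had means of 0.31 ± 1.04 (SD, n = 4; range -1.22 to 1.06) and -0.52 ± 0.52 (range -1.17 to 0.03). A second BNIP3 probe gave a mean of 0.15 and was -1.18 in animal 3, where the first was 1.06. NDRG1, a stress-response gene strongly induced by hypoxia in many cells, had a mean of 0.62 ± 1.12 (range -0.39 to 2.21), with animal 3 highest, and 0.09 without animal 3. It was 1.12 in the authors' log2 values and 1.23 with the processed signal, both over 2-fold. DDIT4 (REDD1), an inhibitor of mTOR signalling, had a mean of -0.66 ± 0.65 (range -1.25 to 0.14), with animals 1 to 3 below 0 and animal 4 above.

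Several members differed more between animal 1 and the other animals than between the tissues. By a rule chosen after the values were seen, an animal stood apart where its level lay over 1 on the log2 scale beyond the other 3 animals in both tissues. Animal 1 was above the others for 4 of the 35 members (HK3, PFKFB4, NDRG1 and P4HA1), beside 3.21% of all tested probes, and below them for 2 members (EPAS1 and EGLN3), beside 1.84%. Animal 3 was above for 1 member (ARNT2), beside 0.787%, and below for 0 members, beside 0.168%. Animals 2 and 4 stood apart for 0 members in either direction, beside 0.222% above and 0.222% below for animal 2 and 0.24% above and 0.0961% below for animal 4. NDRG1 had a log2 level of 11.24 in blood and 10.85 in endometrium of animal 1, against 7.33, 7.09 and 7.06 in blood and 7.52, 9.30 and 7.50 in endometrium of animals 2, 3 and 4. Animal 1 was the earliest in pregnancy and was also the animal with high CD14 mRNA, and with 1 such animal no test can be made. Besides HK3, PFKFB4 and PDK1, 13 members had means that moved by over 1.5 times without animal 1. Means near 0 do so with any small shift. Without it the mean log2 ratio was 0.82 for HK1, 0.45 for GAPDH, 0.65 for LDHB, 0.54 for EGLN1, 0.95 for NDRG1, 0.89 for ALDOC, 0.15 for ALDOA and 0.24 for ENO1. It lay nearer 0 for PFKL (0.16), PGK1 (-0.03), PGAM1 (-0.22), PDK3 (-0.25) and BNIP3L (-0.30).

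**Figure D5:**
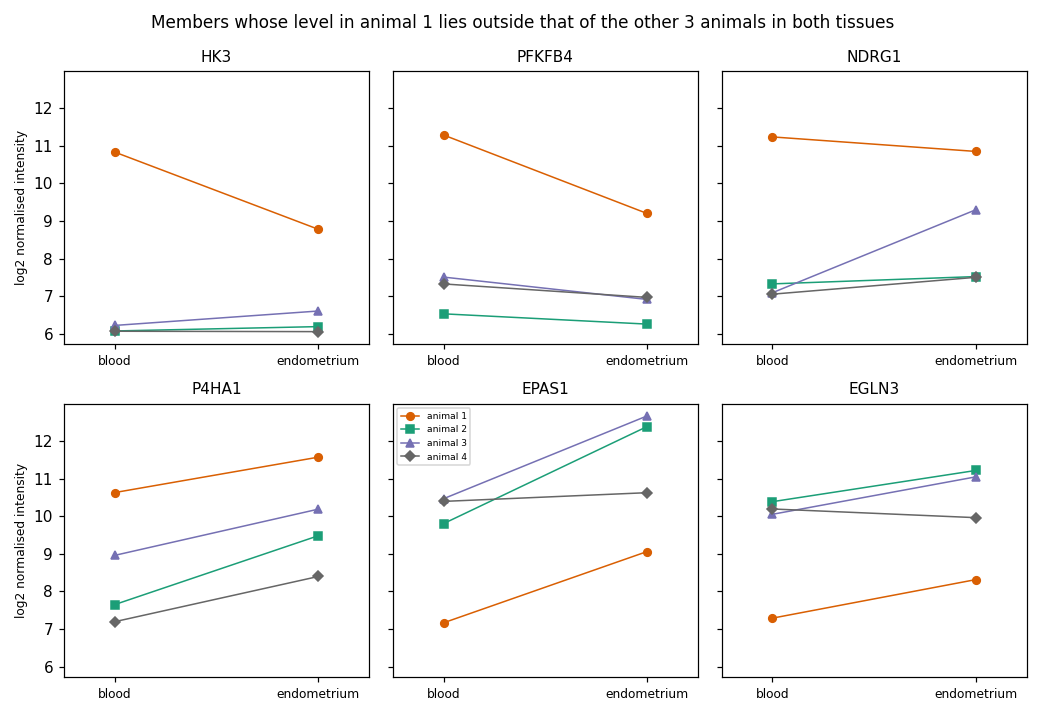
Normalised log2 intensity in blood and endometrium of each animal for the 6 members whose level in animal 1 lay over 1 beyond the other 3 animals in both tissues. HK3, PFKFB4, NDRG1 and P4HA1 are higher in animal 1, and EPAS1 and EGLN3 lower.

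The rest of the pathway was read from lists of genes with related roles, whose counts at the unadjusted threshold stand beside 5.27% of all tested probes higher in endometrium and 5.11% higher in blood. Among other enzymes of glycolysis and gluconeogenesis, 14 of 19 were tested, 1 was at the unadjusted threshold with more in endometrium and 0 with more in blood, and the median log2 ratio was 0.25. That gene was HKDC1, a hexokinase-like enzyme, with ratios of 1.00, 1.08, 2.48 and 0.92, a mean of 1.37 ± 0.74 (SD, n = 4) and an adjusted p of 0.262. Of the same list, PGM2, a phosphopentomutase, had a mean of -0.87 ± 0.71 (SD, n = 4) with an adjusted p of 0.311. Pyruvate dehydrogenase with its kinases and phosphatases had a median of -0.62 over 9 tested genes, with 1 gene at the unadjusted threshold higher in endometrium and 2 higher in blood. PDK4, the kinase induced by fasting and fatty acids, had ratios of 2.13, 0.39, 4.53 and 2.82, with a mean of 2.47 ± 1.71 (SD, n = 4) and an adjusted p of 0.262. PDHB, the beta subunit of the E1 enzyme, had a mean of -1.03 ± 0.50 and PPM2C, the phosphatase that activates it, of -1.08 ± 0.83. Both were below 0 in all 4 animals, and PDK4 was above 0 in all 4.

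Other regulators of HIF numbered 21 tested genes, whose median log2 ratio was -0.35, with 0 at the unadjusted threshold higher in endometrium and 4 higher in blood. Of these ARNTL, a clock factor of the ARNT family, had a mean of -1.50 ± 1.42 (SD, n = 4) and VHL, the ubiquitin ligase subunit that binds hydroxylated HIF, of -1.38 ± 1.02. CREBBP, a coactivator of HIF, had ratios of -1.13, -1.39, -1.66 and -0.48, with a mean of -1.17 ± 0.51 (SD, n = 4) and an adjusted p of 0.262. HIF1AN, the asparaginyl hydroxylase that blocks HIF activity, was higher in endometrium in all 4 animals, with ratios of 1.43, 0.71, 1.33 and 0.50 and a mean of 0.99 ± 0.46 (SD, n = 4; adjusted p = 0.262). Of 33 tested genes induced by hypoxia outside the members, 5 were at the unadjusted threshold higher in endometrium and 1 higher in blood, with a median of 0.00. HMOX1, heme oxygenase 1, had a mean of 2.90 ± 1.52, TFRC, the transferrin receptor, of 2.39 ± 1.50 and ADM, adrenomedullin, of 2.20 ± 1.89 (SD, n = 4), with adjusted p values of 0.262, 0.262 and 0.280. VEGFA, the angiogenic growth factor and a well-known HIF target, had ratios of -0.63, -0.08, 0.35 and 0.77, with a mean of 0.10 ± 0.60. The pentose phosphate pathway (7 genes), glycogen metabolism (10 genes) and other glucose and monocarboxylate transporters (7 of 10 genes tested) had no gene at the unadjusted threshold, and their medians were 0.00, 0.13 and 0.19. None of the genes of these 7 lists passed the adjusted threshold in limma.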

How the data were processed

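The arrays were scanned and the authors extracted the spots with Agilent Feature Extraction (9.5 in the submitters' processing notes, 10.5.1.1 in the file headers). Deposited scanner files gave each spot's median intensity in both dyes, and a deposited table gave log2 values that, per the study's methods, the authors had normalised by lowess within arrays and by quantiles. Each column of that table equalled, by rank, the labelled dye in a file that GEO lists under that animal's other technical replicate (100% of values within 0.001), so each file was read as the replicate it matched. Read as attached, the sign would turn in animals 1, 2 and 4. Median intensities were background-corrected (normexp, offset 50), loess-normalised within arrays and quantile-normalised over the 16 channels with limma 3.58.1 in R 4.3.3. The offset shrinks the ratios of dim spots. Spots of a probe were averaged, and a probe was well above background in a channel where both its spots were. Levels are log2 of this normalised intensity. The 2 arrays of an animal were averaged to 1 log2 ratio, which pairs the tissues by animal. The deviations of both tissues of an animal from the tissue means correlated at 0.62, 0.36, 0.21 and 0.46 in animals 1 to 4. The test was lmFit and eBayes against 0 over 16654 probes.

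Of the 35 members found, 6 had their description in another column of the files. The number of animals limits the precision. Members with an unadjusted p of at most 0.05 or a mean log2 ratio of at least 1 in size, those the study names, and central genes are given animal by animal, and the others by mean, SD and range. In each other list up to 3 genes with the largest mean ratio at that p are named, with PDK4, HIF1AN, HKDC1 and VEGFA. 1 gene that this rule names is not reported here. The members and lists were chosen with earlier results of these data known. Scripts were tested on simulated data with less spread over the animals than the real data, so that test gives no measure of power here. No genome was used here, so no positions are given.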

Additional observations from a re-analysis of the deposited data

Results flagged for a closer look

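Each set of 4 animals was searched for a value far from the other 3, where the gap to the nearest value exceeded Dixon's 95% critical share of the range. Chance flags about 1 in 20 such sets, and 15 of 106 were flagged, 8 of them for animal 1, 4 for animal 3 and 3 for animal 4. The sets are not independent, since all share the same animals and the ratio of a gene is the difference of its levels. The same share over all tested probes was not computed, so the count is not read as an excess among the members.

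In animal 1, the blood level was far above the other animals for HK1 (13.09), HK3 (10.83), PGAM1 (13.81) and NDRG1 (11.24), and far below them for EGLN3 (7.29). The log2 ratio of animal 1 was apart for HK3 (-2.05) and PDK1 (1.95), and so was its median over the members (-0.39). In animal 3, ARNT2 was apart in its ratio (3.87), its blood level (7.23) and its endometrial level (11.11), and PDK1 in its endometrial level (8.75). In animal 4, the log2 ratio was apart for PFKL (-0.93), PKM2 (0.18) and EGLN3 (-0.23).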

How the results depend on the processing

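With 17 alternatives, 549 of 566 member values kept the direction of the ratio. Some alternatives changed only the probe filter, the pairing or the test. They left each ratio as it was, so their values in this count could not turn. No member, and none of all tested probes, passed the adjusted threshold when any animal was left out (0), where 2 to 3 members were at the unadjusted threshold higher in endometrium and 1 to 5 higher in blood, beside 3.13 to 6.15% and 2.37 to 7.41% of all tested probes, and the member median was 0.05 to 0.16. Without animal 1 or 3 that blood count was 1 (PFKFB3), and without animal 4 it was 5 (SLC2A3, PFKFB3, PKM2, LDHA and ARNT), beside 7.41% of all tested probes. The number of members past the adjusted threshold was 1 with the processed signal, 1 in the authors' log2 values (ARNT2 in both, beside 1.03% and 1.35% of all tested probes) and 3 with the 8 arrays fitted singly, dye as a term and animal as random (SLC2A3, EPAS1 and P4HA1), where 4.76% of all tested probes passed. Without the replicate block, as 8 unpaired samples, 0 members were at the unadjusted threshold higher in endometrium and 2 higher in blood. All tested probes had shares of 3.1% and 3.64% there. In the methods' analysis of variance the counts were 2 and 1, beside 2.32% and 1.8% of all tested probes. Signs turned for GPI without quantile normalisation (0.0023), for ALDOA on slide 2 (-0.041) and with the dye term (-0.0030), and for ENO1 with the processed signal (0.017), without quantile normalisation (0.14), on slide 2 (0.015) and with the dye term (0.00080). With each animal left out in turn, the log2 ratio of 8 members took both signs: HK3 ranged from -0.65 to 0.16, GPI from -0.36 to 0.079, ALDOA from -0.11 to 0.15, ALDOC from -0.59 to 0.89, ENO1 from -0.16 to 0.24, LDHB from -0.019 to 0.65, PDK1 from -0.24 to 0.56 and EGLN1 from -0.10 to 0.54. The authors' log2 values put the median of all tested probes at -0.14 and of the members at 0.25. The cause of these changes was not tested. Spots near the background limit the ratios of HK3, ARNT2, ENO2 and SLC16A3.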

Other observations

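Genes of the pentose phosphate pathway, the branch that makes NADPH, had a summed linear level of 49162 in blood of animal 1 and of 7657 to 8895 in blood of the other animals, beside 11304 to 18688 in endometrium. Genes of glycogen metabolism had a summed level of 28411 in blood of animal 1 and of 6575 to 14581 in blood of the others, beside 7269 to 16710 in endometrium. Both lists were highest in the sample that also had the highest level of CD14 mRNA. That sample had the highest summed level of the neutrophil list (140497) and the lowest of the T and NK cell list (4437) as well. The part of these cells in the 2 sums was not tested. The summed linear level of the other regulators of HIF, which the brightest probes carry, ran from 41978 to 49420 in blood and from 46462 to 49608 in endometrium, while 6 of the 21 genes had a mean ratio above 0 and the median ratio was -0.35, and -0.89 in animal 3.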
